A study of Mus musculus with 12 samples.

Results

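Midkine (Mdk) and pleiotrophin (Ptn), together with the cell surface proteins that bind them, were read by 21 probe sets for 9 genes, out of 22626 probe sets tested and 12393 genes with a symbol of their own on the array. The members were Mdk, Ptn, the syndecans Sdc1, Sdc2 and Sdc4, Lrp1, Ncl, Alk and Ptprz1, and every probe set annotated to one of these symbols alone was used. Mdk was chosen for its high level in tumors without wild-type p53, so its differences between genotypes are given as a description and were not tested. The other 8 genes were taken as its relative and its binding partners, and their 20 probe sets were tested.

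Expression was measured in 12 salivary tumors of MMTV-ras mice, with 1 array per tumor. The tumors were homozygous for p53 R172H (MT1 to MT4), without p53 (KO1 to KO4) or with wild-type p53 (WT1 to WT4). All 3 groups carried the MMTV-ras transgene, in which the mouse mammary tumor virus promoter drives Hras, and none was treated. The mice had a mixed Balb/c and C57BL/6 background, and the R172H line was founded by a cross to C57BL/6 mice carrying that allele and then bred as its own colony, so genotype and colony cannot be told apart. The labels call the mice adult and number the tumors but do not say if any share a mouse, so p-values cover only the spread among the tumors as sampled. Values are log2 expression levels. A difference of 1 on this scale is a doubling. Differences carry a standard error (SE) from limma, a linear model fitted over all probe sets, and p-values were adjusted (Benjamini-Hochberg) over the 22626 probe sets. An adjusted p under 0.05 is called passing.

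Midkine and pleiotrophin are secreted, heparin-binding growth factors that form a family of their own. Midkine is abundant in the embryo at midgestation, low in most adult tissues and raised in many carcinomas, and pleiotrophin is best known from the developing nervous system. Both bind the glycosaminoglycan chains of proteoglycans, among them the syndecans and the receptor phosphatase Ptprz1, whose activity falls when a ligand clusters it, and both have been linked to the receptor tyrosine kinase Alk, the endocytic receptor Lrp1 and cell surface nucleolin.

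Trp53, the targeted gene, was lower in every KO tumor than in any other tumor at both of its probe sets, while MT and WT tumors overlapped. Its level does not show the R172H allele. At the first of its 2 probe sets, Trp53 had levels of 7.88 to 9.03 in MT tumors, 5.85 to 6.36 in KO tumors and 7.38 to 8.01 in WT tumors. The bacterial poly-A transcripts that can be added to RNA before labeling set 3 MT tumors apart: their mean level was 10.38 to 10.56 in MT1 to MT3, against 3.98 to 4.23 in MT4 and all KO and WT tumors. Beside the differences of members and list genes that involve MT tumors, the value with a block for this level is therefore given, which rests on MT4 as the single MT tumor at the low level. The tumors were epithelial by their markers: the mean level of 8 luminal genes, among them the keratins Krt8 and Krt18, was 10.40 to 11.06 in MT tumors, 10.86 to 11.17 in KO tumors and 9.58 to 11.10 in WT tumors. In a tumor piece, fewer cells of a type and less RNA per cell cannot be told apart.

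Mdk was high in tumors without wild-type p53 and low in tumors with it. Its level was 10.02, 9.66, 11.29 and 10.55 in MT1 to MT4 and 11.32, 11.72, 11.45 and 10.46 in KO1 to KO4, against 6.14, 6.0, 6.69 and 6.24 in WT1 to WT4. Every MT and KO tumor was above every WT tumor, and the MT and KO levels overlapped. The KO minus WT difference was 4.97 (SE 0.35), a 31.4-fold higher level in KO tumors, and the MT minus WT difference was 4.11 (SE 0.35), or 17.3-fold. By size these ranked 1 and 5 among the 22626 probe sets. The MT minus KO difference was -0.86 (SE 0.35). With the block for the poly-A level, the MT minus WT difference was 4.28 and the MT minus KO difference was -0.69.

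Some markers of acinar, macrophage and endothelial cells were lower in KO than in WT tumors, and fewer were lower in MT tumors. No probe set of the luminal, basal and myoepithelial, fibroblast, B and plasma cell, Schwann cell and nerve, or adipocyte lists passed in any comparison. Over 10 probe sets for 8 measured genes of a list of 10 acinar and demilune genes, the mean level was 8.98 to 9.74 in MT tumors and 8.58 to 9.12 in KO tumors, against 10.03 to 10.52 in WT tumors. Of these probe sets 2 of 10 were lower in KO than in WT tumors by limma, against 2.64% of the array, and 0 passed between MT and WT tumors. Of 12 probe sets for macrophage genes 3 were lower in KO than in WT tumors and 1 was lower in MT tumors, against 0.19% of the array, and their mean was 8.39 to 9.46 in MT tumors, 8.58 to 9.16 in KO tumors and 9.11 to 9.60 in WT tumors. Of 10 probe sets for endothelial genes 3 were lower in KO than in WT tumors, against 2.64% of the array, and 0 passed between MT and WT tumors. Their mean was 5.85 to 6.03 in MT tumors, 5.56 to 5.97 in KO tumors and 5.99 to 6.22 in WT tumors. The part of these cells in the level of Mdk was not tested.

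Ptn, the relative of Mdk, overlapped between all genotypes at both of its probe sets, and none of its differences passed. At 1448254_at its level was 6.68, 5.72, 6.61 and 6.72 in MT1 to MT4 and 7.60, 7.47, 8.03 and 6.16 in KO1 to KO4, against 5.61, 5.79, 7.55 and 5.89 in WT1 to WT4. KO1 to KO3 lay at 7.47 or above, as did WT3 alone of the WT tumors, and all groups overlapped. KO tumors differed from WT tumors by 1.10 (95% interval 0.06 to 2.15, adjusted p = 0.186 from limma). The differences were 0.22 between MT and WT tumors (adjusted p = 0.835) and -0.88 between MT and KO tumors (adjusted p = 0.602). With the poly-A block they were 0.51 and -0.60. The other probe set, 1416211_a_at, was also highest in KO3 (7.89) among KO tumors and in WT3 (7.48) among WT tumors. Its differences were 0.34 for KO minus WT, -0.24 for MT minus WT and -0.58 for MT minus KO, with adjusted p-values of 0.523, 0.686 and 0.577 from limma. With the block the MT minus WT difference was -0.010 and the MT minus KO difference -0.35. The mean of 11 probe sets for fibroblast markers, cells that can make pleiotrophin, was also highest in KO3 among KO tumors (8.58) and in WT3 among WT tumors (8.97). It did not follow Ptn in every tumor, since it was 8.31 in MT2, where Ptn was lowest among MT tumors, and lowest among KO tumors in KO1 (7.28), where Ptn was 7.60 at 1448254_at. The part of these cells in the Ptn level was not tested.

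**Figure D1:**
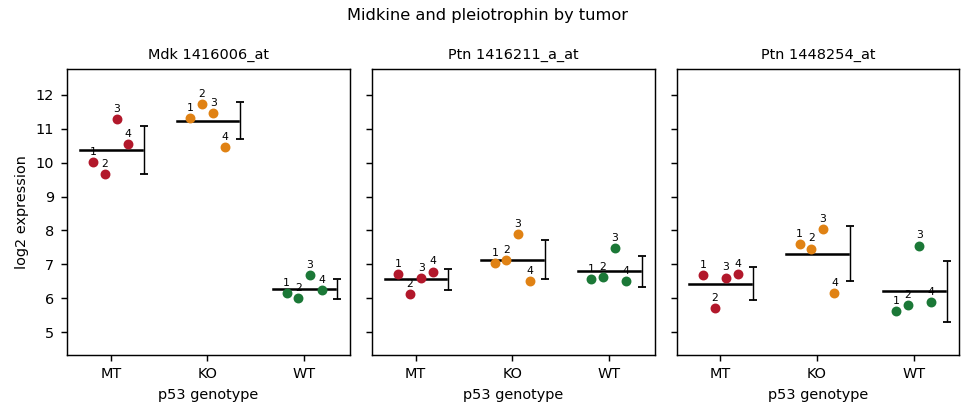
Log2 expression (vertical axis) of Mdk and of both Ptn probe sets in MT, KO and WT tumors, with a numbered point for each tumor, a bar at the mean of each group and whiskers of 1 SD (n = 4). For Mdk all MT and KO tumors lie at 9.66 or above and all WT tumors at 6.69 or below, while the groups overlap at both Ptn probe sets.

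Syndecans are transmembrane proteoglycans whose heparan sulfate chains bind growth factors, midkine and pleiotrophin among them. Of the 3 measured, Sdc4, a syndecan of focal adhesions, had 2 probe sets, and 1 of them was higher in KO than in WT tumors. At 1417654_at its level was 9.15, 8.72, 8.75 and 8.72 in MT1 to MT4 and 9.34, 9.62, 8.94 and 9.39 in KO1 to KO4, against 7.94, 8.24, 8.01 and 8.38 in WT1 to WT4. Every MT and KO tumor was above every WT tumor. The KO minus WT difference was 1.18, a 2.27-fold higher level (SE 0.16, limma's adjusted p = 0.00846). It did not pass with the methods' t-test (adjusted p = 0.0892). The share of all probe sets that passed with that test was not counted, so the lost call cannot be read as particular to Sdc4. The MT minus WT difference was 0.69 (95% interval 0.33 to 1.05, adjusted p = 0.0785 from limma). It passed without WT4 (0.77, adjusted p = 0.0491 from limma), but with no other single tumor left out. By limma its adjusted p was 0.205 without WT1, 0.0839 without WT2 and 0.217 without WT3. The share of all probe sets that passed in these fits was not counted. With the poly-A block the MT minus WT difference was 0.57. Between MT and KO tumors the difference was -0.49 (limma's adjusted p = 0.369, and -0.61 with the block).

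At its other probe set, 1448793_a_at, Sdc4 had levels of 9.31, 10.59, 10.17 and 8.89 in MT1 to MT4 and 9.70, 9.40, 9.34 and 8.25 in KO1 to KO4, against 7.35, 9.16, 7.81 and 9.16 in WT1 to WT4. WT2 and WT4 lay within the range of the KO tumors. None of its differences passed: 0.81 for KO minus WT (95% interval -0.29 to 1.90, adjusted p = 0.355 from limma), 1.37 for MT minus WT (0.27 to 2.47, adjusted p = 0.179) and 0.57 for MT minus KO (-0.53 to 1.66, adjusted p = 0.785). With the poly-A block the MT minus WT difference was 0.52, and that between MT and KO tumors turned to -0.28.

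Promoter sequences of Mdk and Sdc2 were not found in the RefSeq table of GRCm38.p6 and were not searched. Sequences were matched for the other 7 of the 9 genes. Those of Sdc4, the tested member that passed, and of Ptprz1, for which 2 probe sets did not overlap between MT and WT tumors, are shown over the 250 bases before the annotated start. The first is on the minus strand at chr2:164443189-164443438 and the second on the plus strand at chr6:22875252-22875501, both written 5′ to 3′ along the gene. Capitals mark GC boxes (GGGCGG on either strand), which bind Sp1-type factors.
Sdc4: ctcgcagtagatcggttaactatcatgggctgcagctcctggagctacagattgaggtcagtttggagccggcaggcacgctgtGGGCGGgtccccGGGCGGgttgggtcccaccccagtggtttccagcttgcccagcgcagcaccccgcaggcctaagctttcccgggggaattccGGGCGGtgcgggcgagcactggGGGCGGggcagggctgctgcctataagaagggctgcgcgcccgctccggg
Ptprz1: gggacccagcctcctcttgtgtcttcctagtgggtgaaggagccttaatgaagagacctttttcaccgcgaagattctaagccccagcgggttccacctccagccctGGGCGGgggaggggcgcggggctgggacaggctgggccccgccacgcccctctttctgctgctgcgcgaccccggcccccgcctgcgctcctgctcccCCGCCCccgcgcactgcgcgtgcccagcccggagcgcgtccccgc

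These windows hold 4 GC boxes for Sdc4 and 2 for Ptprz1. At least 1 GC box was found in 6 of the 7 member promoters, Ptn being the exception, and in 32.7% of all 32851 promoters of the same length. The single p53 decamer consensus was found, on either strand, in none of the 7, which do not include Mdk, and in 7.13% of all promoters. The NF-kappaB consensus was found in those of Sdc4, Sdc1 and Alk and in 7.25% of all. The windows with a GC box were 65.2 to 71.6% G or C, and that of Ptn was 52%. The shares of all promoters were not matched for this content. A match is a description of these letters only.

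Sdc1, the main syndecan of epithelial cells, was measured by 4 probe sets, which disagreed on the order of the genotypes. At 1448158_at its level was 8.76, 7.98, 7.79 and 7.53 in MT1 to MT4, against 6.96, 7.21, 7.29 and 6.67 in KO1 to KO4, and 7.30, 7.80, 7.64 and 7.49 in WT1 to WT4. The KO tumors lay below all MT and WT tumors. The MT minus KO difference was 0.98 (95% interval 0.45 to 1.51, adjusted p = 0.242 from limma, 0.50 with the poly-A block), and the KO minus WT difference was -0.53 (-1.06 to 0.00, adjusted p = 0.212). The MT minus WT difference of 0.46 did not pass either (adjusted p = 0.324) and turned to -0.025 with the block.

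The probe set 1437279_x_at gave the opposite order for Sdc1, with the mean of KO tumors highest. The suffix x marks a probe set with probes that can match other transcripts too. Its level was 8.32, 7.36, 7.56 and 8.33 in MT1 to MT4 and 8.27, 8.85, 8.25 and 8.35 in KO1 to KO4, against 7.71, 7.81, 8.18 and 8.10 in WT1 to WT4. Each KO tumor was above each WT tumor, with a KO minus WT difference of 0.48 (limma's adjusted p = 0.244) and an MT minus KO difference of -0.54 (adjusted p = 0.497, and -0.10 with the poly-A block). At the other 2 probe sets the groups overlapped. Over all 4, the MT minus WT differences were -0.06 to 0.46 (-0.25 to 0.38 with the block) and the MT minus KO differences -0.54 to 0.98 (-0.17 to 0.50 with the block). Sdc1 is also a surface marker of plasma cells. The mean of 10 probe sets for B and plasma cell genes was 9.42 in WT1 and 6.74 to 7.24 in the other 11 tumors, and WT1 had the lowest Sdc1 level of the WT tumors at all 4 probe sets (8.10, 7.16, 7.71 and 7.30). The part of these cells in the Sdc1 level was not tested.

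Sdc2, the syndecan of mesenchymal cells, varied within genotypes, and none of its differences between them passed. Its 3 probe sets put the same tumors lowest: at 1417011_at the level was 5.38 in MT4 and 6.45 to 7.36 in the other MT tumors, 6.35 to 7.09 in KO tumors, and 4.76 in WT2 and 6.71 to 7.38 in the other WT tumors. The 9 differences between genotypes were -0.34 to 0.36, with 95% intervals reaching from -1.54 to 1.55, wider than a doubling in either direction (lowest adjusted p = 0.729 from limma). With the poly-A block, for which MT4 stands alone, the MT minus WT differences were -1.11 to -0.82 and those between MT and KO tumors -1.47 to -1.0. Fibroblast markers were lowest in WT2 as well, at a mean of 6.68 against 7.77 to 8.97 in the other WT tumors, but MT4, at 8.11, was not low among the MT tumors (7.32 to 8.31). The part of these cells in the Sdc2 level was not tested.

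**Figure D2:**
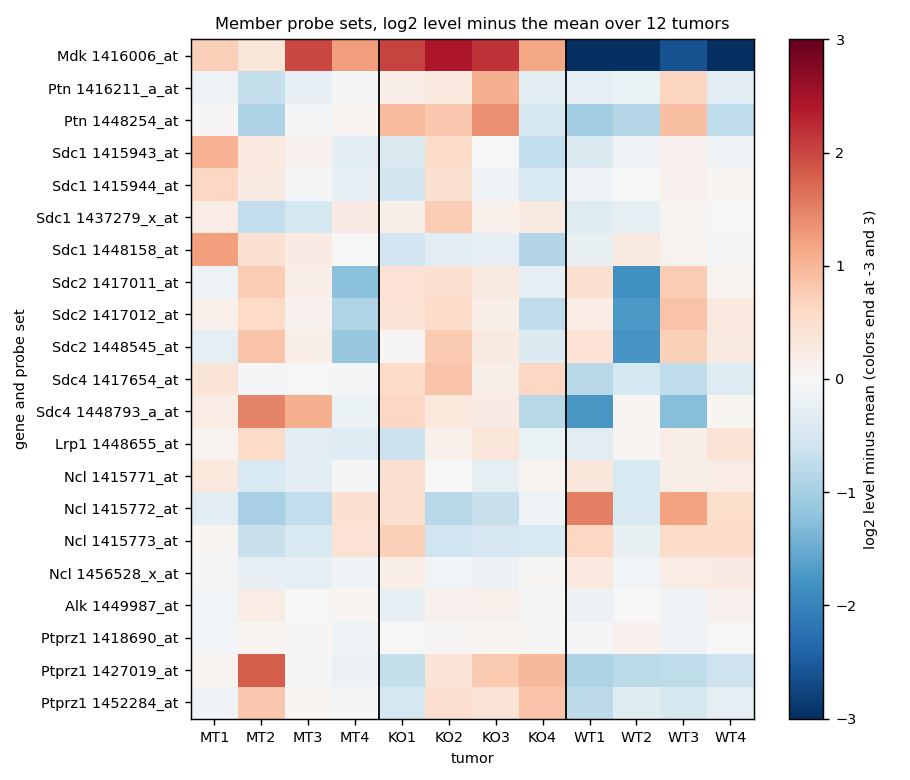
Level of each of the 21 member probe sets (rows) in each tumor (columns) as the log2 level minus its mean over 12 tumors (blue below it, red above it), with lines between MT, KO and WT tumors. The Mdk row is blue in all WT tumors, the 3 Sdc2 rows are blue in MT4 and WT2, and the rows of Alk and of Ptprz1 1418690_at are nearly white.

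Ptprz1 was low on the array, with 1418690_at at 3.69 to 3.93 in all 12 tumors and no difference between genotypes that passed (adjusted p = 0.860 to 0.900 from limma). Its other 2 probe sets were brighter, and both were highest in MT2 among MT tumors and lowest in KO1 among KO tumors. At 1427019_at the level was 5.37, 7.11, 5.27 and 5.11 in MT1 to MT4 and 4.58, 5.69, 6.09 and 6.27 in KO1 to KO4, against 4.37, 4.49, 4.52 and 4.66 in WT1 to WT4. At 1452284_at it was 5.92, 6.84, 6.08 and 5.95 in MT1 to MT4 and 5.50, 6.51, 6.41 and 6.89 in KO1 to KO4, against 5.23, 5.66, 5.54 and 5.72 in WT1 to WT4. All MT tumors were above all WT tumors at both, and KO1 was the single KO tumor within the WT range.

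Neither probe set of Ptprz1 passed over all tumors. The KO minus WT differences were 1.14 (95% interval 0.17 to 2.12, adjusted p = 0.148 from limma) and 0.79 (0.17 to 1.42, adjusted p = 0.123). The second passed without KO1 (1.07, adjusted p = 0.0421 from limma), but with no other single tumor left out. By limma its adjusted p was 0.249 without WT1, 0.166 without WT2, 0.213 without WT3 and 0.140 without WT4. The MT minus WT differences were 1.20 (0.23 to 2.18, adjusted p = 0.184 from limma) and 0.66 (0.03 to 1.28, adjusted p = 0.238). They were 0.60 and 0.42 with the poly-A block. Over the 3 probe sets the MT minus KO differences were -0.13 to 0.06 (-0.54 to -0.15 with the block). The mean level of 18 probe sets for 5 measured Schwann cell and nerve genes, cells known for Ptprz1, was 5.79 to 6.41 in MT tumors, 5.87 to 6.07 in KO tumors and 5.98 to 6.27 in WT tumors. It was highest in MT2 (6.41) among all tumors and lowest in KO1 (5.87) among KO tumors, as Ptprz1 was among the tumors of those genotypes, and its part in the Ptprz1 level was not tested.

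**Figure D3:**
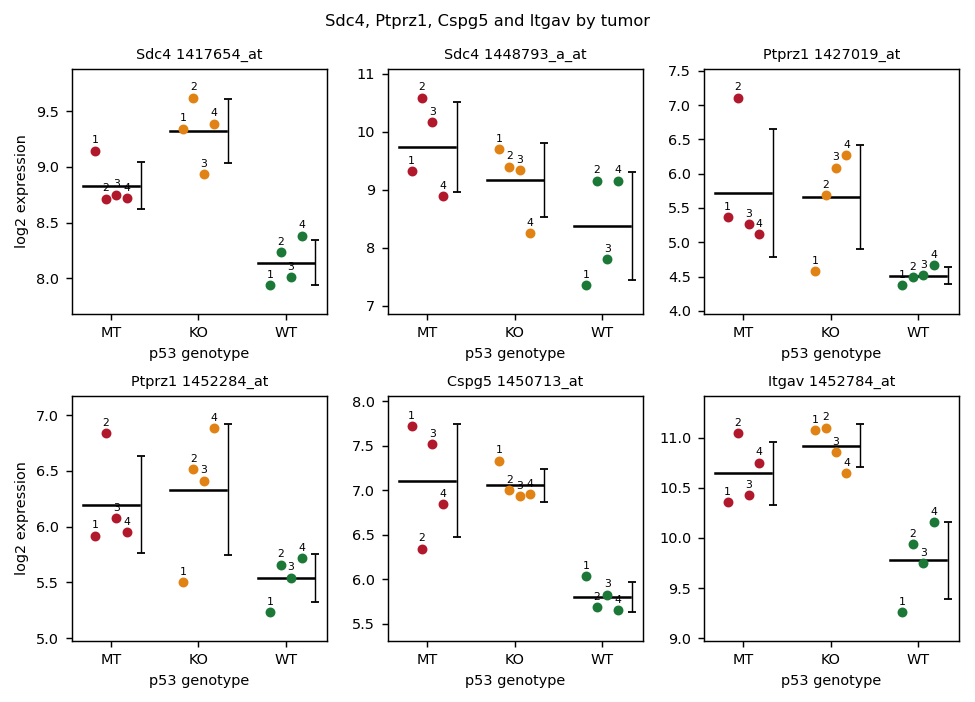
Log2 expression (vertical axis, its range set for each panel) of both Sdc4 probe sets, the 2 brighter Ptprz1 probe sets, Cspg5 and Itgav in MT, KO and WT tumors, with a numbered point for each tumor, a bar at the mean of each group and whiskers of 1 SD (n = 4). All MT and KO tumors lie above all WT tumors for Sdc4 1417654_at, Cspg5 and Itgav, and KO1 lies within the WT range for Ptprz1.

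Alk, the receptor tyrosine kinase, was dim, and no difference between genotypes passed. Its probe set had levels of 5.05, 5.36, 5.12 and 5.19 in MT1 to MT4, 4.88, 5.26, 5.28 and 5.10 in KO1 to KO4 and 4.96, 5.11, 5.02 and 5.26 in WT1 to WT4. Its mean lay above that of 19.6% of probe sets. The 3 differences were 0.04 to 0.09, with 95% intervals from -0.22 to 0.35 (lowest adjusted p = 0.721 from limma). With the poly-A block the MT minus WT difference was 0.10 and the MT minus KO difference 0.06.

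Lrp1, which takes up many ligands by endocytosis, was measured at 7.31, 7.76, 6.89 and 6.81 in MT1 to MT4, 6.55, 7.35, 7.56 and 7.0 in KO1 to KO4 and 6.85, 7.26, 7.40 and 7.60 in WT1 to WT4. The groups overlapped. Its differences were -0.16 to 0.08, with 95% intervals from -0.74 to 0.65 (lowest adjusted p = 0.745 from limma). With the poly-A block the MT minus WT difference, -0.09 without it, was -0.46, and the MT minus KO difference, 0.08 without it, was -0.30.

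Ncl, which encodes the nucleolar protein nucleolin, was brightest at 1415771_at, where it was at 10.88 to 11.79 with a mean above that of 98.0% of probe sets. The means of its other probe sets lay above those of 49.2% (1415772_at) to 93.8% (1415773_at). At 1415772_at the level was 6.56, 5.92, 6.17 and 7.36 in MT1 to MT4 and 7.38, 6.06, 6.24 and 6.75 in KO1 to KO4, against 8.41, 6.45, 8.10 and 7.43 in WT1 to WT4. WT1 and WT3 were highest and the groups overlapped. KO tumors differed from WT tumors by -0.99 (95% interval -1.98 to -0.01, adjusted p = 0.205 from limma) and MT tumors differed from them by -1.09 (-2.08 to -0.11, adjusted p = 0.219, and -0.24 with the poly-A block). At 1456528_x_at, whose probes can match other transcripts, the MT minus WT difference was -0.32 (adjusted p = 0.182, and -0.27 with the block). Over its 4 probe sets the KO minus WT differences were -0.99 to -0.01 and the MT minus WT differences -1.09 to -0.19 (-0.27 to 0.06 with the block), while those between MT and KO tumors were -0.18 to 0.06 (-0.10 to 0.75 with the block), and none passed.

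Counted together, 1 of the 20 tested probe sets, Sdc4 1417654_at, passed between KO and WT tumors, and it was higher in KO tumors. Over the array 4.57% of probe sets passed in this comparison (1.94% higher and 2.64% lower in KO tumors), so the count is near the background. Between MT and WT tumors 0 of 20 passed, against 0.367% of the array (0.177% higher and 0.19% lower in MT tumors), and between MT and KO tumors 0 of 20, against 0.00884%. By unadjusted limma p-values under 0.05 the counts were 5, 6 and 3 of 20 in the same order, with 23.9%, 19.4% and 9.58% of the array. The methods' t-test called 0 in each comparison, and its share over the array was not counted. The groups did not overlap for 3 of 20 probe sets between KO and WT tumors (14.5% of the array), 3 between MT and WT tumors (10.9%) and 1 between MT and KO tumors (4.85%). The median difference over the 20 was 0.11 for KO minus WT, 0.05 for MT minus WT and -0.10 for MT minus KO, against -0.02, -0.01 and 0.02 over all probe sets.

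**Figure D4:**
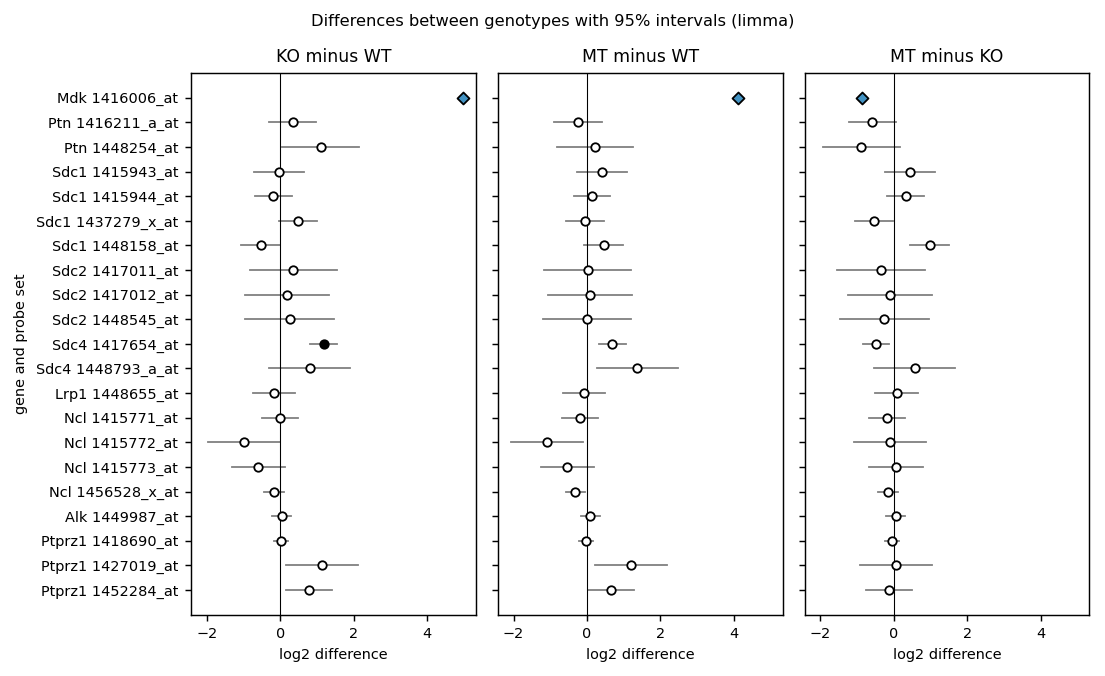
Log2 difference between genotypes (horizontal axis) for the 21 member probe sets (rows) in the 3 comparisons, with lines for the 95% intervals of limma. The filled circle is Sdc4 1417654_at between KO and WT tumors, the single difference that passed at an adjusted p of 0.05, and blue diamonds are Mdk, which is shown without an interval because it was chosen for this difference.

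Other genes that bind or relay midkine and pleiotrophin were read from a list of 28, of which 27 were measured by 59 probe sets. Between KO and WT tumors 4 probe sets were higher and 1 was lower, against 4.57% of the array in both directions, and the median difference was 0.02. Between MT and WT tumors 1 was higher and 0 were lower, against 0.367% of the array, with a median of 0.17. Between MT and KO tumors 0 passed by limma (8 of 59 at an unadjusted p under 0.05, against 9.58% of the array). With the methods' t-test all of these calls were lost, and 0 of 59 passed in each of the 3 comparisons. The KO minus WT count of 5 was 2 without WT1, 3 without WT2, 1 without WT3, 2 without KO1, 2 without KO3 and 3 without KO4. The MT minus WT count of 1 was 0 without WT1, WT3, MT1 or MT3 and 4 without WT4 or without MT4. The share of all probe sets that passed in these alternatives was not counted, so lost calls cannot be read as particular to these genes.

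The higher genes were 4 cell surface proteins. Cspg5, a neural chondroitin sulfate proteoglycan that binds midkine, had levels of 7.72, 6.34, 7.52 and 6.84 in MT1 to MT4 and 7.33, 7.0, 6.94 and 6.95 in KO1 to KO4, against 6.03, 5.69, 5.83 and 5.65 in WT1 to WT4. All MT and KO tumors were above all WT tumors. Between KO and WT tumors it differed by 1.26 (SE 0.26, limma's adjusted p = 0.0246), and the MT minus WT difference, at 1.30, did not pass (adjusted p = 0.0575, and 1.04 at adjusted p = 0.537 with the poly-A block).

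Itgav, the integrin alpha-V chain, also had every MT and KO tumor above every WT tumor at 1452784_at, with 10.36, 11.04, 10.43 and 10.75 in MT1 to MT4 and 11.07, 11.10, 10.86 and 10.65 in KO1 to KO4, against 9.26, 9.94, 9.75 and 10.16 in WT1 to WT4. Its KO minus WT difference was 1.14 (SE 0.21, limma's adjusted p = 0.0186), and that between MT and WT tumors, 0.87, did not pass (adjusted p = 0.0796, and 0.98 with the poly-A block). Its other 2 probe sets did not pass.

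Lrp6, a relative of Lrp1 and a coreceptor for Wnt ligands, was higher in KO than in WT tumors at 1 of 2 probe sets. At 1428500_at it had 9.27, 9.32, 9.69 and 8.89 in MT1 to MT4 and 9.54, 10.19, 10.33 and 10.31 in KO1 to KO4, against 8.54, 9.07, 9.16 and 8.78 in WT1 to WT4. KO tumors differed from WT tumors by 1.21 (SE 0.22, limma's adjusted p = 0.0183). Its MT minus WT difference was 0.41 (adjusted p = 0.335) and its MT minus KO difference -0.80 (adjusted p = 0.283). With the poly-A block they were 0.0052 and -1.20.

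Ptprs, a receptor phosphatase for heparan and chondroitin sulfate chains, passed at a different probe set in each comparison. Between KO and WT tumors 1426794_at passed, with a difference of 1.21 (SE 0.27, adjusted p = 0.0323 from limma). Between MT and WT tumors 1427688_a_at passed, with levels of 6.87, 7.21, 7.19 and 6.84 in MT1 to MT4, against 6.20, 6.16, 6.31 and 6.34 in WT1 to WT4, and a difference of 0.77 (SE 0.12, adjusted p = 0.0258 from limma, and 0.59 at adjusted p = 0.448 with the poly-A block). Sdc3, the neural syndecan known as a pleiotrophin receptor, was the gene that was lower. At 1420853_at it had 7.82, 7.97, 8.04 and 7.87 in KO1 to KO4, against 8.31, 8.74, 8.43 and 8.26 in WT1 to WT4, with a KO minus WT difference of -0.51 (SE 0.13, adjusted p = 0.0480 from limma, and 0.0506 with the poly-A block). Its other 2 probe sets did not pass.

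Of the genes next to Mdk on chromosome 2, only Phf21a had probe sets that passed. The 5 measured genes on each side were read by 15 probe sets, of which 2 were higher in KO than in WT tumors, against 1.94% of the array, both of Phf21a, a component of a histone demethylase complex. Their KO minus WT differences were 1.08 and 0.80 (adjusted p = 0.00328 and 0.0198 from limma), and for the first the MT minus WT difference also passed, at 0.65 (adjusted p = 0.0456, and 0.70 at adjusted p = 0.411 with the poly-A block). Over all 15 the differences were -0.54 to 1.08 for KO minus WT and -0.30 to 0.87 for MT minus WT. The nearest neighbors, Chrm4 and Dgkz, had KO minus WT differences of -0.29 for Chrm4 and 0.48 and 0.74 for Dgkz, none of which passed.

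The profiles closest to that of Mdk belonged to Trip6, Slit2, Col9a3, Chrnb1 and Mia. Likeness was measured as the root-mean-square difference between log2 profiles over the 12 tumors, each centered on its mean, among named probe sets above the median level. The 6 closest probe sets had values of 0.75 for Trip6, an adaptor of cell adhesions, 1.06 for Slit2, a secreted guidance protein, 1.10 at each of both probe sets of Col9a3, a cartilage collagen chain, 1.20 for Chrnb1, an acetylcholine receptor subunit, and 1.21 for Mia, a secreted protein first found in melanoma. The median over all probe sets was 2.24. Trip6 was at 9.04, 8.76, 9.52 and 8.02 in MT1 to MT4 and 8.42, 9.45, 8.79 and 8.26 in KO1 to KO4, against 4.95, 5.08, 5.19 and 5.54 in WT1 to WT4. Mia had 10.43, 10.77, 10.97 and 7.40 in MT1 to MT4 and 11.45, 9.47, 9.92 and 10.22 in KO1 to KO4, against 5.63, 6.81, 6.55 and 6.51 in WT1 to WT4, and in MT4 the level of Mia was close to those of WT tumors while that of Mdk was not. These genes were picked by their likeness to Mdk and were not tested.

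**Figure D5:**
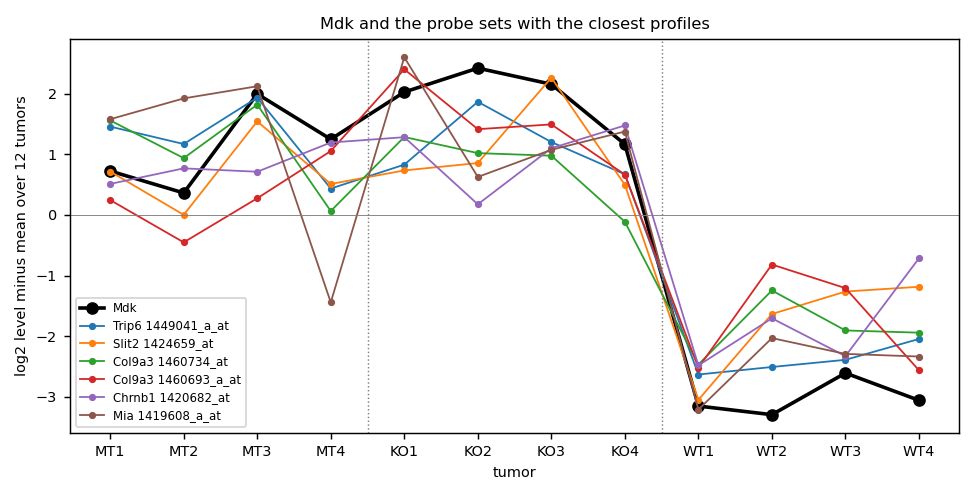
Log2 level minus its mean over the 12 tumors (vertical axis) for Mdk (black) and for the 6 probe sets with the closest profiles, by tumor (horizontal axis), with dotted lines between MT, KO and WT tumors. All 7 lines lie below 0 in every WT tumor, and outside the WT tumors Mia falls below 0 in MT4, 1 Col9a3 probe set in MT2 and the other in KO4.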

How the data were processed

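RNA of each tumor was hybridized to 1 Affymetrix mouse array. The authors' methods state that RMA made the deposited log2 values (a background-corrected, quantile-normalized summary of the probes). Per those methods, MAS5, also named in the submitters' notes, was among other summaries that the authors compared with RMA. The table held 22690 probe sets, of which 64 are controls and were not tested. The platform annotation gave 20380 of the rest a single gene symbol. The Trp53 probe sets were named from the study's gene list.

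limma 3.58.1 (R 4.3.3; lmFit, eBayes) fitted a mean for each genotype over the 12 tumors, and tests were 2-sided. The limma step was tested on simulated data. The 4 arrays per genotype limit the precision. The members, gene lists and tests were chosen with earlier results of these data known. Named were all members, list genes that passed, the 6 profiles closest to Mdk and 5 neighbors on each side of it. The alternatives left out dim probe sets, or used other scalings, fits to 8 tumors, trend and robust moderation, an ordinary t-test with the same adjustment (the methods' t-test), blocks for tumor number and poly-A level, and each tumor left out. The main method of the authors for comparing groups was SAM, which is based on permutations and was not repeated here. They set a t-test with this adjustment beside it. Figures and motif searches used Python 3.11.15 and matplotlib 3.10.9.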

Additional observations from a re-analysis of the deposited data

Results flagged for a closer look

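Single tumors stood apart within their genotype in 9 of the 81 groups of 4 tumors examined, by the gap to the nearest of the other 3 tumors over the range of the group. Chance alone gives about 1 in 20 groups. The groups are not independent, since probe sets of a gene were read on the same tumors, and Ptn in WT3 and Ptprz1 in MT2 count more than once. The share over all probe sets was not counted, so the 9 cannot be read as an excess.

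Ptn was high in WT3 at both probe sets, with 7.48 at 1416211_a_at (6.51 to 6.63 in the other WT tumors) and 7.55 at 1448254_at (5.61 to 5.89). At 1448254_at it was low in MT2, at 5.72 (6.61 to 6.72 in the other MT tumors). Ptprz1 was high in MT2, at 7.11 at 1427019_at (5.11 to 5.37) and 6.84 at 1452284_at (5.92 to 6.08). Sdc4 was high in MT1 at 1417654_at, at 9.15 (8.72 to 8.75). Ncl at 1415773_at was high in KO1, at 10.87 (9.56 to 9.70 in the other KO tumors), and low in WT2, at 9.95 (10.71 to 10.79 in the other WT tumors). Cspg5 was high in KO1, at 7.33 (6.94 to 7.0).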

How the results depend on the processing

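The 60 tested differences of the member probe sets kept their direction in 46 to 60 cases under the alternatives that tested all of them, and all 48 that were tested kept it with dim probe sets left out. No difference that turned was called before or after. The block for the poly-A level turned 14, among them Sdc1 1448158_at for MT minus WT (-0.025) and Sdc4 1448793_a_at for MT minus KO (-0.28). Between KO and WT tumors the count of 1 member was 0 with the methods' t-test and 1 to 2 with single tumors left out, and the MT minus WT count of 0 was 0 to 1. Of the other genes of the pathway, the KO minus WT count of 5 was 3 in fits to the 8 tumors compared, 0 with the methods' t-test and 1 to 6 with single tumors left out. The MT minus WT count of 1 was 0 in fits to the 8 tumors compared, 0 with the methods' t-test, 0 with the poly-A block and 0 to 4 with single tumors left out. The share of all probe sets called in each alternative was not counted, so these changes cannot be read as particular to these genes. The cause was not tested. Same-numbered tumors of different genotypes correlated at 0.0023 to 0.335, above 0.1 in 6 of 12 pairs. Tumors of different numbers were not compared in this way, so these values cannot show whether the number is a pairing. The main fit did not use the number. With the number as a replicate block the KO minus WT count of pathway genes was 8, and no call of a member changed. The Mdk differences were 4.82 to 5.23 for KO minus WT, 3.81 to 4.35 for MT minus WT and -1.16 to -0.62 for MT minus KO over all alternatives.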
